A study of Mus musculus with 26 samples.

Results

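The CCAAT/enhancer-binding protein (C/EBP) genes were followed through myeloid progenitors and mast cells of mice with and without Prss57, the gene for neutrophil serine protease 4 (NSP4). The family was taken as the 6 genes that carry the name in the mouse, namely Cebpa, Cebpb, Cebpd, Cebpe, Cebpg and Cebpz, out of 52636 genes in each deposited table. All 6 were found and all 6 passed the low-count filter in every comparison. Bulk RNA was sequenced from granulocyte-macrophage progenitors (GMPs), common myeloid progenitors (CMPs) and bone marrow-derived mast cells (BMMCs). Each progenitor had 4 libraries per genotype and BMMCs had 5, which gave 26 libraries in 6 groups. Prss57-/- mice lack exon 2 of Prss57 in every tissue from the germline on and were compared with littermates. GMPs and CMPs were sorted from the bone marrow of female mice as lineage-negative, SCA-1-, CD117+, CD34+ cells that were high (GMP) or low (CMP) for CD16/32. The BMMCs were grown with IL-3 and stem cell factor from sorted GMPs of male mice and were sequenced in another run. Cell type, culture, sex and run can therefore not be told apart wherever BMMCs were set against GMPs. Ages of the sequenced mice, and whether a BMMC library was 1 culture of 1 mouse, are not given in the sources used here, so p-values measure the spread between these libraries.

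C/EBP proteins are basic leucine zipper transcription factors that bind DNA as dimers with each other and with related factors. C/EBPα (Cebpa) is known to be required for CMPs to become GMPs, and C/EBPε (Cebpe) for the later stages of neutrophil and eosinophil maturation and their granule proteins. C/EBPβ (Cebpb) and C/EBPδ (Cebpd) act in macrophages, in inflammation and in granulocyte production under stress. C/EBPγ (Cebpg) lacks the activation domain of its relatives and pairs with ATF4. Cebpz bears the family name but encodes a nucleolar CCAAT-binding protein without the leucine zipper, and so served as a member outside the dimer network.

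In the GENCODE M21 annotation of GRCm38, Cebpa (ENSMUSG00000034957) lies on the forward strand of chromosome 7 from 35119293 to 35121928. Cebpg (ENSMUSG00000056216) lies on the reverse strand of the same chromosome from 35046422 to 35056573, and 62720 bases separate the starts of these neighbours, which are transcribed away from each other. Cebpb (ENSMUSG00000056501) is a gene of 1 exon on chromosome 2, from 167688915 to 167690418 on the forward strand. Cebpd (ENSMUSG00000071637) lies on chromosome 16 from 15887286 to 15891031, forward, and Cebpe (ENSMUSG00000052435) on chromosome 14 from 54710360 to 54712174, reverse. Cebpz (ENSMUSG00000024081) is the longest gene of the family, on chromosome 17 from 78919006 to 78937066, reverse, with transcripts of up to 16 exons.

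The upstream sequences of 3 members were held by the RefSeq promoter table for GRCm38.p6, those of Cebpa, Cebpb and Cebpg. They are shown because the first 2 of these genes rose from CMPs to GMPs and the third did not. Each sequence is the 250 bases before the start of transcription, read 5′ to 3′ on the strand of the gene, at chr7:35119043-35119292 (+) for Cebpa, chr2:167688665-167688914 (+) for Cebpb and chr7:35056567-35056816 (-) for Cebpg. Capitals mark TTGCG, the first letters of the C/EBP consensus, and CCAAT, each on either strand.
Cebpa: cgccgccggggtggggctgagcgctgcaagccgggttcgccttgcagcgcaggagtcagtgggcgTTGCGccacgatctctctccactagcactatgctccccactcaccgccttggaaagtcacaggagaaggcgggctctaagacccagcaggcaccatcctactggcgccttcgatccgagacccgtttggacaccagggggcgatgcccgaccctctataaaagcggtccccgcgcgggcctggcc
Cebpb: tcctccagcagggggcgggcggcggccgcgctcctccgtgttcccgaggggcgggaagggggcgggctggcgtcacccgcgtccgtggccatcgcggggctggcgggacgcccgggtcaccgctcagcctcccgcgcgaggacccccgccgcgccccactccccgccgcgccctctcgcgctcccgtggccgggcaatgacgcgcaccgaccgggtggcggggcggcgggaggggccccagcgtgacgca
Cebpg: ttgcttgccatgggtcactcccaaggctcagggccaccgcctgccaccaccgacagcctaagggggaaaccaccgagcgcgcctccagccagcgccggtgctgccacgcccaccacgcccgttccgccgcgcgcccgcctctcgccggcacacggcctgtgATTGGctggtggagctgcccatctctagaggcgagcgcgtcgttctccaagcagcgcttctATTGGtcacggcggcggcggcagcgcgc
The Cebpa sequence held 1 TTGCG, at position -185 counted back from the start, and no CCAAT. The Cebpg sequence held CCAAT at positions -89 and -28, both as its reverse complement ATTGG, and no TTGCG. The Cebpb sequence held neither. TTGCG occurred on either strand in 14.5% of the 32851 upstream sequences in the table and CCAAT in 33.8%. The longer C/EBP pattern TTNNGNAA was found in 36.8% of them on either strand and in none of the 3 shown. All 3 were richer in G and C than most, at 66.4%, 81.6% and 70.8% against a median of 52.4%. They held 22, 41 and 29 CG dinucleotides, against a median of 6. Such matches describe letters and were not tied to binding.

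The libraries held 32078404 to 53264762 reads on genes in CMPs, 35501671 to 51497962 in GMPs and 18627626 to 28647216 in BMMCs. Prss57 itself had 2261 to 3926 reads in wild-type CMPs and 18064 to 26556 in wild-type GMPs, against 1 in each Prss57-/- CMP library and 6 to 25 in Prss57-/- GMPs. BMMCs had 2 to 27 Prss57 reads in the wild type and 0 in all 5 Prss57-/- libraries. The deposited levels are RPKM (reads scaled by exon length and library size) adjusted with a size factor, called normalized RPKM here, the scale on which genes are compared with each other below. Differences between groups are log2 differences of counts from edgeR's quasi-likelihood test, with p-values adjusted by the Benjamini-Hochberg method over all genes tested, and a gene was called at an adjusted p under 0.05.

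Prss57-/- BMMC library 3 stood apart from the other 9 BMMC libraries. Of the 13938 genes tested in BMMCs, 36.9% were lower in it than in all 9 others and 34.8% were higher. All 8 macrophage and dendritic cell markers were lower in it, with a summed level of 181 normalized RPKM against 1685 to 2779 in the others and 111 to 141 in GMPs. Of the 8 mast cell markers, 6 were higher in it and Tpsb2 lay within the others. Hdc, the histamine-making enzyme, was lower, at 88.6 against 125 to 175. The sum of all 8 was 75777 against 25250 to 46815. The BMMC groups as labelled thus carried both the mast cell markers, of which 7 of 8 rose from GMPs in the wild type, and the macrophage and dendritic cell markers, of which 8 of 8 rose. The mast cell proteases Tpsb2, Cma1 and Mcpt4 had 0 reads in all wild-type CMPs, Mcpt4 also in all Prss57-/- CMPs, Hba-a1, a hemoglobin chain, had 0 in all wild-type BMMCs, as did the B cell gene Cd79a, and the T cell gene Cd3e had 0 in the BMMCs of both genotypes. The edgeR differences of Cebpa, Cebpb, Cebpd and Cebpg that use Prss57-/- BMMCs are given with and without library 3. Correlations over all 26 libraries include it. In all groups, a change in the share of cells that express a gene and a change in the RNA per cell cannot be told apart.

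**Figure D1:**
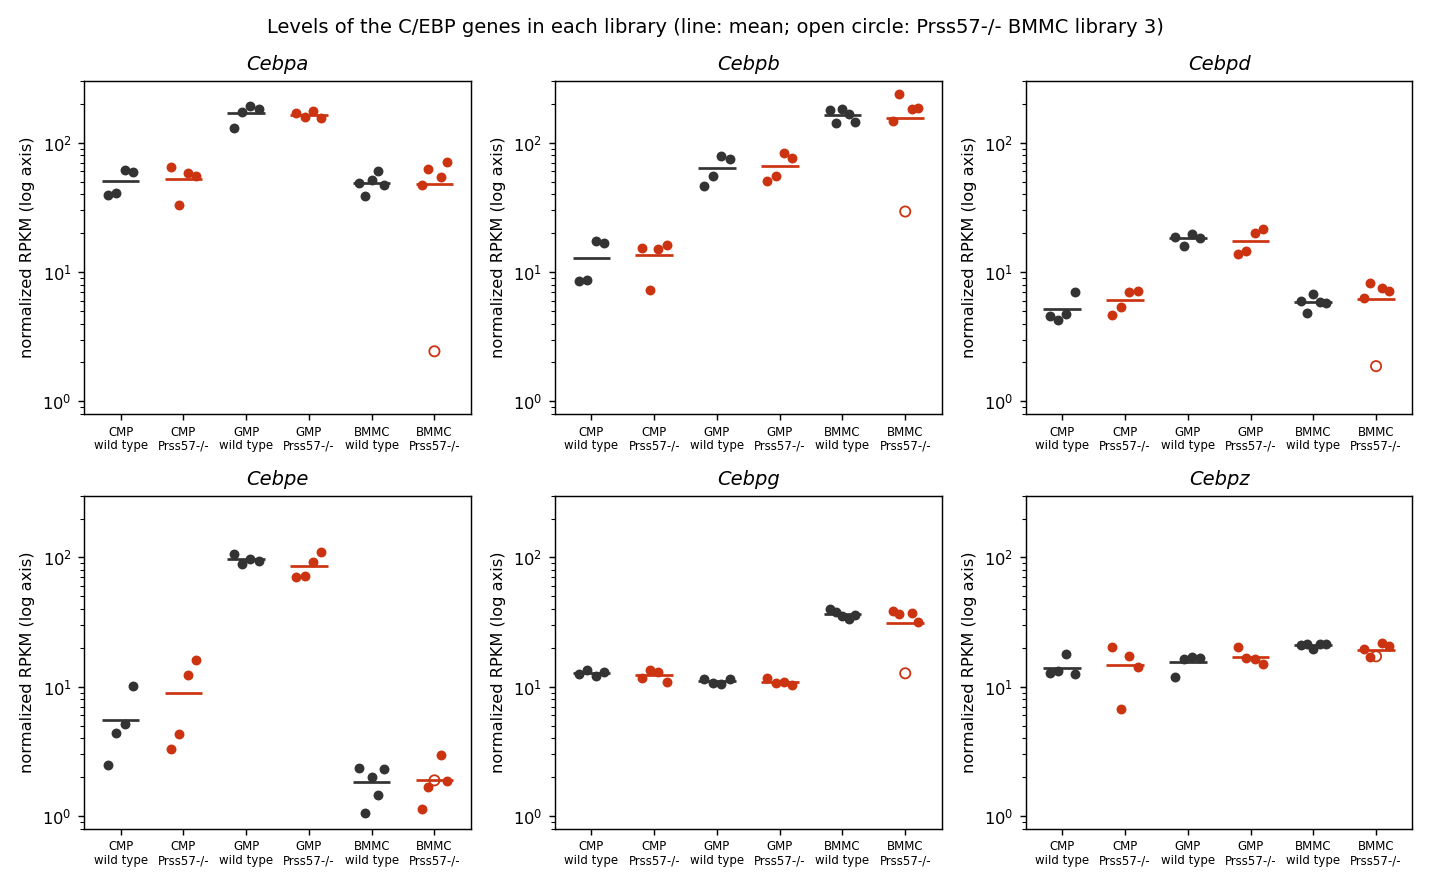
Level of each C/EBP gene in each library on a log axis of normalized RPKM, by cell type and genotype, with 4 libraries per progenitor group and 5 per BMMC group. Black points are wild type, red points Prss57-/-, lines are group means, and the open circle is Prss57-/- BMMC library 3, where Cebpa was at 2.44 against 47.3 to 71.0 in the other 4 Prss57-/- BMMC libraries.

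The step from CMPs to GMPs was examined first. Of the 6 members, Cebpa, Cebpb, Cebpd and Cebpe rose in wild-type GMPs and none fell, and the same 4 rose in Prss57-/- GMPs. Among all 14967 genes tested in the wild type, 19% rose and 18.8% fell. In the Prss57-/- comparison 10.6% of 14959 genes rose and 10.9% fell. The median log2 difference of the 6 members was 1.81 in the wild type and 1.63 in Prss57-/- mice, beside -0.02 and -0.03 over all genes tested. In all, 37.8% of genes were called in the wild type and 21.5% in Prss57-/- mice. The library ranges of GMPs and CMPs did not overlap for 31.5% of genes in the wild type and 28.5% in Prss57-/- mice. The study's stricter criteria, an adjusted p under 0.01 and at least a 2-fold difference, called the same 4 members in each genotype, and 12.8% and 8.42% of all genes. The number of genes called in Prss57-/- mice, 3222, ran from 1891 without GMP library 3 to 6924 without CMP library 1, while the 4 members were called without each library in turn.

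Cebpe rose most. It stood at 2.48, 4.35, 5.11 and 10.1 normalized RPKM in the 4 wild-type CMP libraries and at 107, 88.3, 97.2 and 94.2 in the wild-type GMP libraries. The groups did not overlap, and the lowest GMP library was far above the highest CMP library. The log2 difference was 4.15 (SE 0.37, adjusted p = 1.69e-05), a 17.8-fold higher level. In Prss57-/- mice Cebpe was at 3.33, 4.31, 12.2 and 16.2 in CMPs and at 70.3, 71.7, 92.4 and 109.9 in GMPs. The log2 difference there was 3.29 (SE 0.51, adjusted p = 0.00212).

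Cebpa was already the most abundant member in CMPs. Wild-type CMP libraries held it at 39.2, 40.5, 61.7 and 59.2 normalized RPKM and wild-type GMP libraries at 131, 173, 192 and 181. The ranges were apart, with a log2 difference of 1.77 (SE 0.19, adjusted p = 6.97e-05) or 3.42-fold. Prss57-/- libraries held Cebpa at 64.4, 33.1, 58.4 and 55.5 in CMPs and at 169.7, 158, 175 and 156 in GMPs. The ranges were again apart, and the log2 difference was 1.68 (SE 0.23, adjusted p = 0.000968).

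Cebpb, the member linked to inflammation and macrophages, started from a lower level than Cebpa. It was at 8.47, 8.63, 17.4 and 16.9 normalized RPKM in wild-type CMPs and at 45.9, 55.6, 79.3 and 75.1 in wild-type GMPs. In Prss57-/- mice it was at 15.5, 7.25, 15.2 and 16.3 in CMPs and at 50.4, 55.0, 84.0 and 76.5 in GMPs. Every GMP library was above every CMP library of its genotype, with log2 differences of 2.33 in the wild type (SE 0.29, adjusted p = 0.000185) and 2.33 in Prss57-/- mice (SE 0.30, adjusted p = 0.000821). In both genotypes GMP libraries 3 and 4 were above libraries 1 and 2.

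In GMPs Cebpd was the lowest of the members that rose. Its level was 4.27 to 7.02 normalized RPKM in wild-type CMPs and 15.9 to 19.8 in wild-type GMPs, without overlap (log2 difference 1.84, SE 0.17, adjusted p = 2.16e-05). Prss57-/- libraries ran from 4.68 to 7.10 in CMPs and from 13.7 to 21.5 in GMPs (log2 difference 1.58, SE 0.22, adjusted p = 0.00123).

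Cebpg and Cebpz were not called between CMPs and GMPs. Cebpg was at 12.2 to 13.5 normalized RPKM in wild-type CMPs and at 10.6 to 11.6 in GMPs. Although these ranges did not overlap, as was true of 31.5% of all genes tested, the log2 difference of -0.20 had a 95% confidence interval of -0.40 to 0.01 (adjusted p = 0.115). In Prss57-/- mice the Cebpg ranges overlapped, with a log2 difference of -0.12 (95% CI -0.42 to 0.17, adjusted p = 0.482). Cebpz differed by 0.16 on the log2 scale in the wild type (95% CI -0.21 to 0.53, adjusted p = 0.460) and by 0.25 in Prss57-/- mice (95% CI -0.43 to 0.94, adjusted p = 0.537). The intervals leave room for changes of both genes, up to 0.94 on the log2 scale for Cebpz in Prss57-/- mice.

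**Figure D2:**
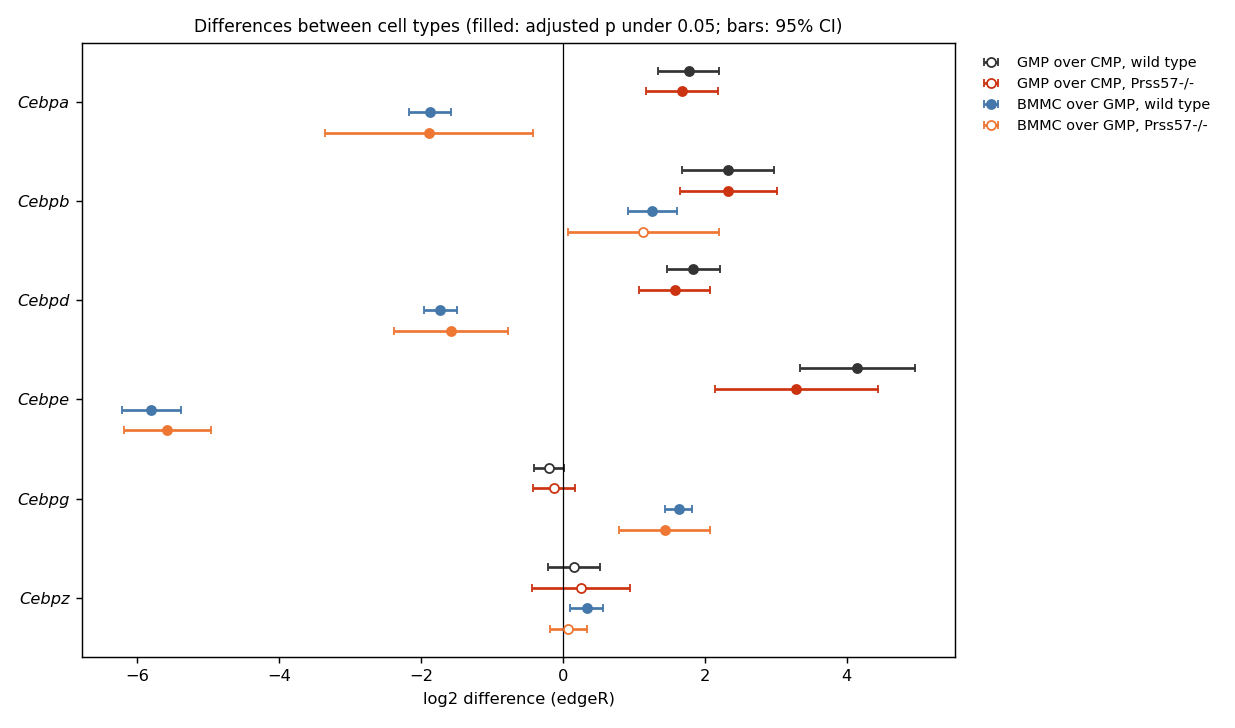
Log2 differences of each C/EBP gene between cell types from edgeR, for GMP over CMP and BMMC over GMP in each genotype, with 95% confidence intervals, filled where the adjusted p was under 0.05. Cebpe had the largest difference in each of the 4 comparisons, from 4.15 for wild-type GMPs over CMPs to -5.80 for wild-type BMMCs over GMPs.

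The CMP libraries differed among themselves, and Cebpe did so most. Its order within each genotype was the order of Fcgr3, the gene for CD16 and part of the gate that separates the sorted populations. Wild-type CMP libraries 1 to 4 held Fcgr3 at 13.5, 17.3, 19.1 and 38.5 normalized RPKM, and Prss57-/- CMP libraries at 11.7, 26.5, 43.0 and 58.8. Cebpe had the same rank as Fcgr3 in all 4 libraries of each genotype, as did Cebpd in Prss57-/- CMPs. Mpo did so in wild-type CMPs, at 1688, 2344, 2791 and 3091, and not in Prss57-/- CMPs. The share of all genes with the order of Fcgr3 was not computed. In wild-type CMPs the rank correlation with Fcgr3 over the 4 libraries was 0.8 for Cebpa, Cebpb and Cebpd alike, and in Prss57-/- CMPs it was -0.4 for Cebpa and 0.4 for Cebpb. It was 0 or below for Cebpg and Cebpz in both genotypes. GMPs held Fcgr3 at a mean of 303 in the wild type and 301 in Prss57-/- mice. The part of the gate in the spread of Cebpe was not tested.

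**Figure D3:**
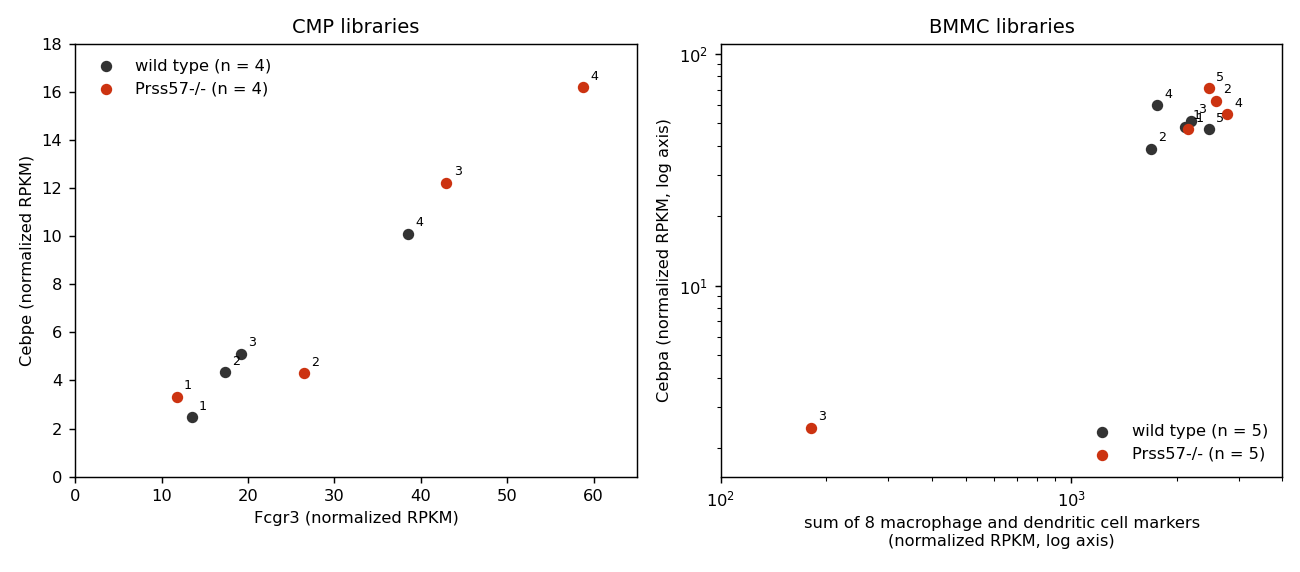
Left, Cebpe against Fcgr3 in the 8 CMP libraries, both in normalized RPKM; right, Cebpa against the sum of 8 macrophage and dendritic cell markers in the 10 BMMC libraries, both on log axes; numbers give the library. Cebpe ran from 2.48 in wild-type CMP library 1 to 16.2 in Prss57-/- CMP library 4, and Prss57-/- BMMC library 3 lay alone at a marker sum of 181 with Cebpa at 2.44.

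Genes that C/EBP proteins are known to activate were described next. Of 8 early granulocyte targets, 7 rose from CMPs to GMPs in each genotype and none fell. In the wild type Elane, neutrophil elastase, went from a mean of 650.3 to 8488 normalized RPKM (log2 difference 3.72, SE 0.40, adjusted p = 6.60e-05). Mpo, myeloperoxidase of the azurophilic granule, had a log2 difference of 2.29 (adjusted p = 1.04e-05), and Prtn3, proteinase 3, one of 2.26 (adjusted p = 5.01e-05). Gfi1, a repressor needed for neutrophil fate, had the smallest adjusted p of the list, at a log2 difference of 2.81 (adjusted p = 3.55e-06). Ctsg, cathepsin G, rose by 2.00 (adjusted p = 7.98e-05), and Csf3r, the receptor for granulocyte colony-stimulating factor, by 1.58 (adjusted p = 0.000156). Lyz2, lysozyme, was not called, at 0.37 (adjusted p = 0.123).

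The late granule targets, which include textbook targets of C/EBPε, differed by more. Of 9 genes, 8 rose in each genotype and none fell, with a median log2 difference of 7.24 in the wild type and 6.09 in Prss57-/- mice. Camp, the cathelicidin precursor, went from a mean of 0.527 to 269.5 normalized RPKM in the wild type, a log2 difference of 9.04 (SE 0.36, adjusted p = 4.14e-07). Ltf, lactoferrin of the specific granule, differed by 9.87 (adjusted p = 5.13e-07), and Chil3, a chitinase-like secreted protein, by 8.28 (adjusted p = 1.09e-06). Wild-type CMP libraries held 0 to 7 reads of Ltf and 0 to 12 of Chil3, so the sizes of these differences rest on few reads. S100a9 and S100a8, the subunits of calprotectin, differed by 7.24 and 6.53 (adjusted p = 1.93e-06 and 2.97e-06). Mmp8, neutrophil collagenase, was not called, at 0.40 (adjusted p = 0.281). The summed level of these 9 genes was 13.5 to 36.3 normalized RPKM in wild-type CMPs and 13.1 to 83.6 in Prss57-/- CMPs. It was 1596 to 3407 in wild-type GMPs and 867 to 5340 in Prss57-/- GMPs.

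Markers of other granulocyte lineages moved with Cebpe as well. All 3 eosinophil markers and both basophil markers rose from CMPs to GMPs in each genotype, and so did 3 of 5 mature neutrophil markers. The summed eosinophil markers were at 8.74 to 36.5 normalized RPKM in wild-type CMPs and 1439 to 2326 in wild-type GMPs. Their part in the levels of Cebpe was not tested.

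Of 11 factors that act with or against C/EBP proteins, 5 rose, 2 fell and 4 were not called from CMPs to GMPs in the wild type. Gata1 and Zfpm1, which work together in erythroid and megakaryocytic cells, fell by 3.06 and 3.21 on the log2 scale (adjusted p = 4.80e-07 and 2.14e-06). Spi1, which encodes the myeloid factor PU.1, rose by 1.32 (adjusted p = 4.64e-05). Mitf, a mast cell factor, rose by 1.49 (adjusted p = 0.000393) from a mean of 0.368 normalized RPKM. Irf8, a monocyte and dendritic cell factor, rose by 0.77 (adjusted p = 0.000287), a call that was lost with all 26 libraries in 1 fit (adjusted p = 0.155). All 6 erythroid and megakaryocyte markers fell in both genotypes, with sums of 880.5 to 1513 normalized RPKM in wild-type CMPs and 48.1 to 89.1 in wild-type GMPs, and their part in the member differences was not tested.

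Regulators of C/EBP proteins and their leucine zipper partners moved in both directions. Of the 11 tested in wild-type GMPs over CMPs, 4 rose and 2 fell. Trib2, whose protein directs C/EBPα to degradation, fell by 4.78 on the log2 scale (SE 0.28, adjusted p = 1.73e-06), from a mean of 14.8 to 0.526 normalized RPKM. Its relative Trib1 rose by 1.55 (adjusted p = 0.00775), from 0.0865 to 0.249. Calr, calreticulin, which can bind Cebpa mRNA, rose by 1.08 (adjusted p = 0.000277), and Fos, a leucine zipper partner, by 1.56 (adjusted p = 0.00428). Ddit3, the inhibitory partner CHOP, fell by 0.62 (adjusted p = 0.0207), and lost its call without wild-type CMP library 1 or 2 or GMP library 2, 3 or 4 (adjusted p up to 0.0674). In Prss57-/- mice 2 rose and 2 fell, and Trib2 was the one of these 4 that kept its call without each library in turn. Calr lost it without GMP library 3 (adjusted p = 0.0521), Ddit3 without CMP library 4 or any GMP library (up to 0.101) and Trib1 without CMP library 3 or 4 or any GMP library (up to 0.109).

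The inflammatory targets were near the bottom of the range in progenitors. Their summed level over 6 genes was at most 9.30 normalized RPKM in any CMP or GMP library. In wild-type GMPs 2 of the 4 tested rose, Il6 by 2.09 and Saa3 by 1.79 (adjusted p = 0.00143 and 0.00449), and Il1b fell by 3.82 (adjusted p = 0.000378). In Prss57-/- GMPs none of 4 was called, with adjusted p from 0.0932 to 0.368.

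The second step compared BMMCs with the GMP stage from which they were grown, under the confounding given above. In the wild type all 6 members were called, at a background of 81.5% of 14754 genes called, of which equal numbers rose and fell (40.8% each). The count of members is thus close to that of genes at large, and the sizes carry the description. Under the stricter criteria 5 members and 51.7% of genes were called. The library ranges of BMMCs and GMPs did not overlap for 75.3% of the genes tested. Cebpe, Cebpa and Cebpd fell, and Cebpg, Cebpb and Cebpz rose.

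Cebpe was the lowest member in BMMCs. Wild-type BMMC libraries held it at 2.34, 1.06, 2.01, 1.45 and 2.29 normalized RPKM, from 26 to 67 reads, against 88.3 to 107 in wild-type GMPs. The log2 difference was -5.80 (SE 0.19, adjusted p = 1.17e-10), or 55.8-fold lower. In Prss57-/- BMMCs it was at 1.13, 1.68, 1.89, 2.94 and 1.88, a log2 difference of -5.58 (SE 0.27, adjusted p = 1.69e-07). Library 3 lay within the others for this gene.

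Cebpa and Cebpd were near their levels in CMPs. Cebpa was at 48.4, 39.0, 51.5, 60.1 and 47.2 normalized RPKM in wild-type BMMCs, all below the GMP libraries (log2 difference -1.88, SE 0.14, adjusted p = 8.78e-08). Cebpd was at 4.84 to 6.76 (log2 difference -1.73, SE 0.11, adjusted p = 2.08e-08). No test was made of BMMCs against CMPs.

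Cebpb and Cebpg were highest in BMMCs. Cebpb was at 178, 143, 184, 167 and 145 normalized RPKM in wild-type BMMCs, above every wild-type GMP library (log2 difference 1.26, SE 0.16, adjusted p = 1.15e-05). Cebpg, not called between the progenitors, was at 40.0, 37.8, 35.2, 33.6 and 36.0, with a log2 difference of 1.63 (SE 0.09, adjusted p = 5.17e-09), or 3.10-fold. Cebpz was at 19.6 to 21.4, a smaller log2 difference of 0.33 (SE 0.11, adjusted p = 0.0121) that was not called in 1 fit of all 26 libraries (adjusted p = 0.138).

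In Prss57-/- mice, 4 members were called between BMMCs and GMPs, where 73.9% of 14929 genes were (37.7% higher and 36.2% lower). Under the stricter criteria 3 members and 47.9% of genes were called. Cebpa fell by 1.89 on the log2 scale (SE 0.65, adjusted p = 0.0243), Cebpd fell by 1.58 (SE 0.36, adjusted p = 0.00270) and Cebpg rose by 1.43 (SE 0.28, adjusted p = 0.00122). Cebpb differed by 1.13 (SE 0.48, adjusted p = 0.0532) and Cebpz by 0.08 (SE 0.12, adjusted p = 0.574). Without library 3, Cebpb differed by 1.40 (SE 0.19) and was called at an adjusted p of 3.50e-05, and Cebpa differed by -1.57 (SE 0.12, adjusted p = 4.91e-07). Cebpd then differed by -1.34 (SE 0.16, adjusted p = 1.21e-05) and Cebpg by 1.64 (SE 0.09, adjusted p = 3.05e-08). Cebpz stayed uncalled without library 3, at 0.12 (adjusted p = 0.344).

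The C/EBP levels of library 3 stood apart, as did those of many other genes. Cebpa was at 2.44 normalized RPKM, from 110 reads, against 39.0 to 71.0 in the other 9 BMMC libraries. Cebpb was at 29.4 against 143 to 236, which was also below all 4 Prss57-/- GMP libraries. Cebpd was at 1.87 against 4.84 to 8.21, and Cebpg at 12.7 against 31.8 to 40.0, beside 10.3 to 11.6 in Prss57-/- GMPs. These 4 members were below all other BMMC libraries, as were 36.9% of all genes tested, and Cebpe and Cebpz lay within them. In library 3, 8 of the 11 factors that act with or against C/EBP proteins were above the other 9 BMMC libraries and 3 were below. Of all genes tested, 34.8% were above and 36.9% below. Those above included Gata1, at 165 against 31.1 to 51.7, and Gata2, a mast cell factor, at 777 against 291 to 479. Those below were Irf8, at 1.92 against 16.5 to 33.5, Spi1, at 70.4 against 107 to 144, and Zfpm1, at 4.55 against 4.75 to 8.00. The macrophage and dendritic cell markers were also below, as given above. Their part in the C/EBP levels of the other 9 BMMC libraries was not tested.

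The C/EBP mRNA pool changed its make-up along with its size. The 6 levels summed to 80.0 to 119 normalized RPKM in wild-type CMPs, to 325 to 416 in wild-type GMPs and to 247 to 299 in wild-type BMMCs. In wild-type CMPs Cebpa made up 49.7% ± 1.63 (SD, n = 4) of this sum, followed by Cebpz, Cebpg and Cebpb, each between 12.4% and 14.3% on average. In wild-type GMPs Cebpa held 45.0% ± 3.39, Cebpe 26.1% ± 4.47 and Cebpb 16.9% ± 2.49 (SD, n = 4). In wild-type BMMCs Cebpb held 58.7% ± 2.08, Cebpa 17.7% ± 1.97 and Cebpg 13.2% ± 1.55 (SD, n = 5), while Cebpe held 0.657% ± 0.194. Cebpa exceeded Cebpb by 2.41 to 3.12 times in wild-type GMP libraries, and in wild-type BMMC libraries the ratio of Cebpa to Cebpb was 0.272 to 0.360.

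**Figure D4:**
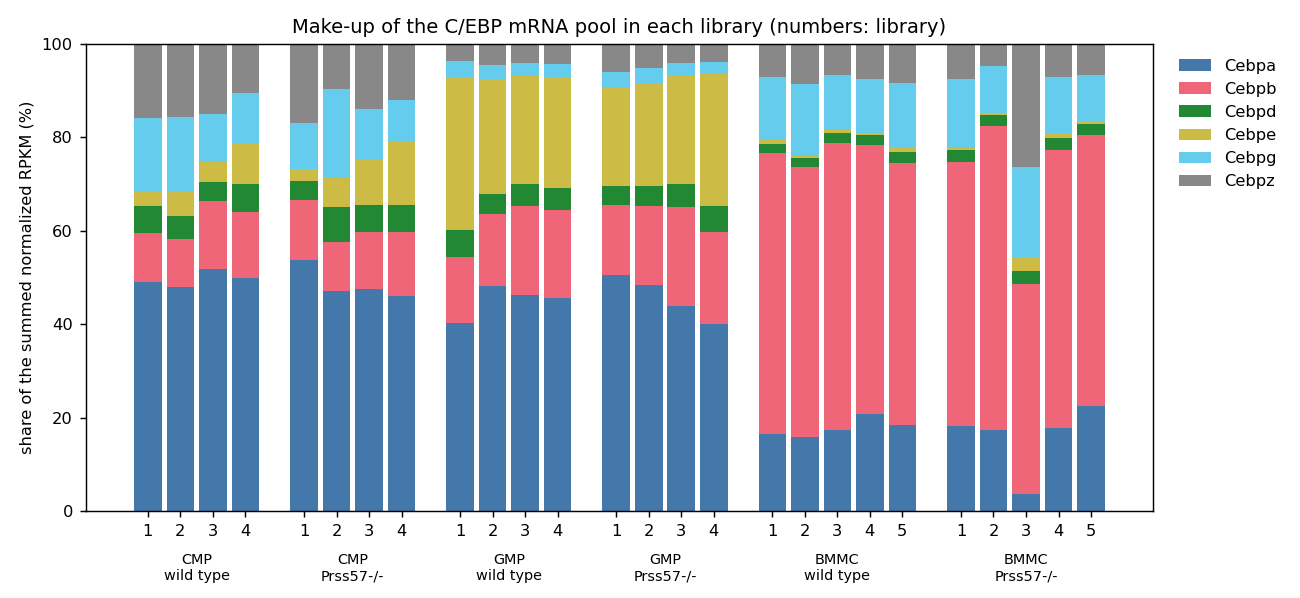
Share of each C/EBP gene in the summed normalized RPKM of the 6 genes, as 1 stacked bar per library, grouped by cell type and genotype. Cebpa (blue) led in CMPs and GMPs, Cebpe (yellow) took 26.1% on average in wild-type GMPs, Cebpb (red) took 58.7% in wild-type BMMCs, and Prss57-/- BMMC library 3 held Cebpz (grey) at 26.3%.

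Within groups the order of levels was clear at the top and less so below. In wild-type GMPs the order was Cebpa, Cebpe, Cebpb, Cebpd, Cebpz and Cebpg, and only Cebpd and Cebpz overlapped in their library ranges. Cebpe and Cebpb overlapped as well in Prss57-/- GMPs. In wild-type CMPs Cebpa stood above all others, while Cebpz, Cebpb and Cebpg overlapped, and so did Cebpe and Cebpd at the bottom. The highest Cebpe library there, at 10.1 normalized RPKM, also reached into the range of Cebpb, which began at 8.47. In wild-type BMMCs the order was Cebpb, Cebpa, Cebpg, Cebpz, Cebpd and Cebpe, with overlap of Cebpa and Cebpg only.

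Targets and partners in wild-type BMMCs over GMPs did not move as single blocks. Of the 8 early granulocyte targets, 7 fell and Lyz2 rose. Elane was at a mean of 0.255 normalized RPKM in BMMCs, from 0 to 15 reads, a log2 difference of -15.10 (adjusted p = 4.49e-11). Lyz2 reached 12352, with a difference of 5.48 (SE 0.20, adjusted p = 2.86e-10). Of the 9 late granule targets, 6 fell and Mmp8, Mmp9 and Chil3 rose. Camp was at 0.111, from 0 to 6 reads, a difference of -11.20 (adjusted p = 2.88e-10), and Mmp8 rose by 5.71 (adjusted p = 2.71e-10). All 6 inflammatory targets rose, among them Il6, at 6.19 (adjusted p = 6.09e-11), Ccl2, which attracts monocytes, at 12.70 (adjusted p = 3.10e-10), and the cytokine Tnf with 7.75 (adjusted p = 1.39e-08). In library 3, 4 of the 8 early granulocyte targets were below the other BMMC libraries, 2 within and 2 above. Lyz2 was below, at 978 against 9432 to 18667. Gfi1 was above, at 32.6 against 13.5 to 27.2, as was Ctsg, at 1163 against 432 to 1084. Of the 9 late granule targets 7 were below, among them Mmp8 at 11.1 against 90.6 to 178, and 2 within. Of all genes tested, 36.9% were below and 34.8% above. Of the 6 inflammatory targets 4 were below the other BMMC libraries in library 3. These were Tnf at 24.9 against 33.3 to 109, Il1b at 6.90 against 41.7 to 103, Ptgs2 at 0.262 against 2.44 to 5.55 and Saa3 at 12.6 against 14.3 to 33.3. Il6 lay within the others, and Ccl2 was above them at 1172 against 227 to 451.

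Of the 12 regulators and partners, 10 rose in wild-type BMMCs and 1 fell, with a median log2 difference of 4.16 beside -0.00 over all genes. Atf3, a stress-induced partner, was at a mean of 0.0131 normalized RPKM in GMPs (0 to 5 reads) and 44.7 in BMMCs (log2 difference 11.48, SE 0.32, adjusted p = 4.47e-11). Ddit3 rose by 4.52 (SE 0.13, adjusted p = 4.49e-11), Trib3 by 10.46 (adjusted p = 6.31e-11) and Fos by 5.81 (adjusted p = 6.60e-10). Atf4, the partner of C/EBPγ, rose by 2.23 (SE 0.12, adjusted p = 7.07e-09). Calr fell, by 2.25 (adjusted p = 8.10e-10), and Cop1, a ubiquitin ligase that acts with Tribbles proteins on C/EBPα, was not called (adjusted p = 0.984). In library 3 the list split, with 6 genes below the other BMMC libraries, 4 within and 2 above. Of all genes tested, 36.9% were below and 34.8% above. Atf3 was at 5.07 against 41.4 to 73.4, Ddit3 at 68.2 against 116 to 185 and Trib3 at 12.6 against 136 to 209. Those above were Trib2, at 21.1 against 4.25 to 12.1, and Batf, a further leucine zipper partner, at 155 against 47.1 to 70.2.

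Among the 11 factors, 5 rose and 5 fell in wild-type BMMCs over GMPs. Mitf rose by 4.67, Id2 by 5.81 and Gata2 by 3.37 (adjusted p = 5.49e-11, 7.02e-11 and 5.46e-09). Irf8 fell by 2.82 and Myb, a factor of immature progenitors, fell by 4.39 (adjusted p = 1.74e-09 and 5.32e-08). Spi1 fell by 0.33 (adjusted p = 0.00568).

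The absence of NSP4 was then set against these cell type differences. No member was called between Prss57-/- and wild-type cells in GMPs, CMPs or BMMCs, where 0.0136%, 0.0067% and 0% of all genes were called (0.00681%, 0.0067% and 0% under the stricter criteria). No member was among the 119, 76 and 332 genes with an unadjusted p under 0.05, and DESeq2 and limma voom called no member either. In GMPs the log2 differences of the 6 members ran from -0.16 for Cebpe (95% CI -0.50 to 0.17) to 0.14 for Cebpz (95% CI -0.17 to 0.45), and the interval of Cebpa was -0.31 to 0.23. The adjusted p from edgeR was 1.00 for each.

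CMPs gave wider intervals. Cebpe had the largest difference, 0.69 on the log2 scale (SE 0.56, 95% CI -0.57 to 1.96), at 2.48 to 10.1 normalized RPKM in the wild type and 3.33 to 16.2 in Prss57-/- mice. Fcgr3 differed in the same direction, by 0.64 (SE 0.48, adjusted p = 1.00). The other 5 members lay between -0.09 for Cebpg and 0.21 for Cebpd. Prss57-/- CMP library 2 was the lowest CMP library for Cebpa, Cebpb and Cebpz, at 33.1, 7.25 and 6.77. It had the most Pf4, at 2561 against 632 to 1277 in the other CMP libraries. Pf4, a megakaryocyte marker, is 1 of the 6 erythroid and megakaryocyte markers. Library 2 also had the fewest reads on genes of any CMP library, 32078404. Without it Cebpe differed by 0.93 (SE 0.54, adjusted p = 1.00) and Cebpz by 0.28 (SE 0.18, adjusted p = 1.00).

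The genotype effects in GMPs and CMPs were compared with an interaction term. No member was called, and neither was any other of 15900 genes, with 169 at an unadjusted p under 0.05. The interaction of Cebpe was -0.87 (SE 0.61, 95% CI -2.17 to 0.43, adjusted p = 1.00). Those of the other members were between -0.28 and 0.08.

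In BMMCs library 3 widened the intervals of Cebpa, Cebpb, Cebpd and Cebpg. The log2 difference of Cebpa was -0.05 (SE 0.60, 95% CI -1.38 to 1.27) with it and 0.25 (SE 0.13, adjusted p = 0.746) without it. Cebpb differed by -0.07 (SE 0.41) with it and by 0.19 (SE 0.13, adjusted p = 0.794) without it. Cebpd differed by 0.09 (SE 0.32) with it, and without it by 0.32 (SE 0.10), for which p was 0.00948 before adjustment and 0.584 after. Cebpg differed by -0.23 (SE 0.25) with it and -0.03 (SE 0.07, adjusted p = 0.956) without it. For the other members the error hardly moved, with Cebpe at 0.05 (SE 0.30) with it and 0.06 (SE 0.30) without it, and Cebpz at -0.12 (SE 0.08) and -0.08 (SE 0.07). Prss57-/- BMMCs without library 3 held Cebpa at 58.9 ± 10.2 normalized RPKM (SD, n = 4), beside 49.2 ± 7.65 (SD, n = 5) in the wild type.

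**Figure D5:**
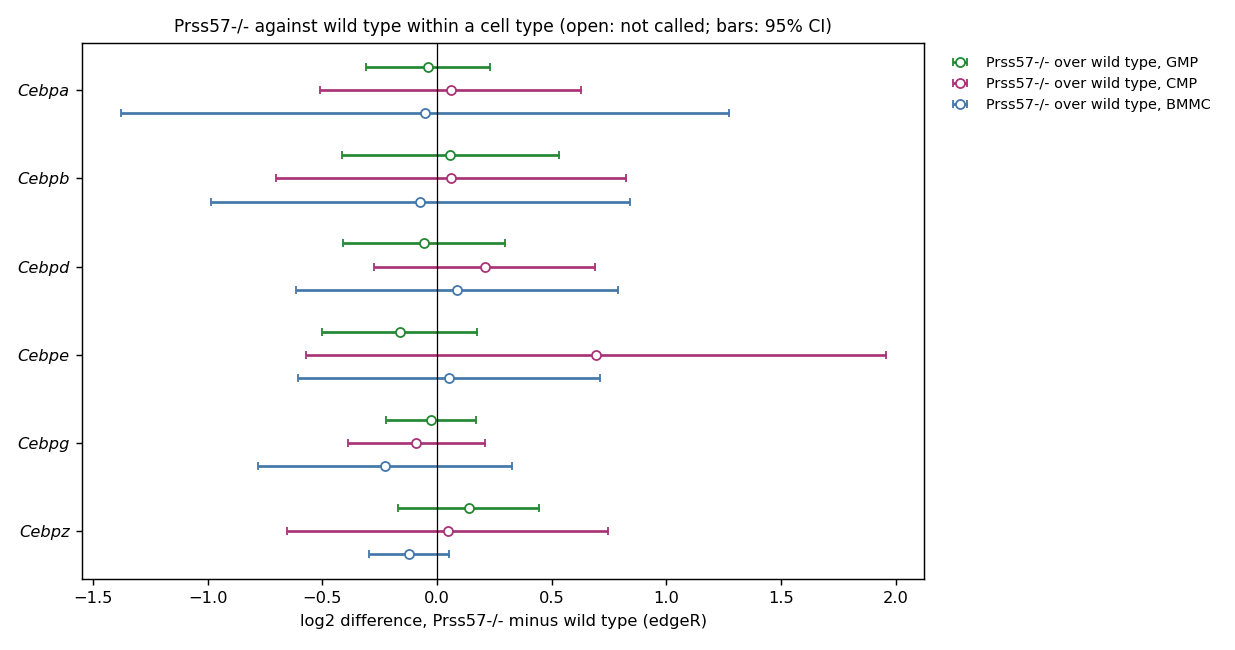
Log2 differences of each C/EBP gene between Prss57-/- and wild-type cells in GMPs, CMPs and BMMCs from edgeR, with 95% confidence intervals, all libraries included. All 18 points are open (not called) and every interval includes 0, with the widest being those of Cebpe in CMPs (-0.57 to 1.96) and Cebpa in BMMCs (-1.38 to 1.27).

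Genes with the pattern most like each member were found by Pearson's r of log2 CPM (counts scaled to library size) over all 26 libraries, as a description in which cell types set most of the variance. Cebpa was followed most closely by Tifab (r = 0.993), Tnfrsf1a, a receptor for TNF (0.987), and Fmnl3 (0.986). Cebpb was followed by Klf4, a monocyte and macrophage transcription factor (0.990), Fgd4 (0.986) and Arhgap31 (0.985). For Cebpd these were Alas1, the first enzyme of heme synthesis (0.980), Aldh1b1 (0.969) and Tor3a (0.969). For Cebpe they were Chst13 (0.987), Edem2 (0.984) and Mapkapk3 (0.982). Cebpg was most like Cyb5r2 (0.991), Sars, which loads serine onto its transfer RNA (0.988), and Bcl2a1a (0.987), a gene of a family of near-identical copies whose reads may be split. Cebpz was most like Usp15 (0.950), Cdc5l (0.946) and Arid2 (0.941). Within the 16 progenitor libraries the r of Cebpa with Tifab was 0.993 and of Cebpe with Chst13 0.993, whereas that of Cebpg with Sars was 0.228.

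Among the members themselves, Cebpa and Cebpd had r = 0.910 and Cebpd and Cebpe 0.866 over the 26 libraries. Cebpb was closest to Cebpg (0.711) and had r = 0.220 with Cebpa. Cebpg and Cebpe ran opposite to each other (-0.721).

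Several members share exons with genes on the opposite strand, and whether the counting used strand is not given in the sources used here. Tmem189 overlaps 312 exon bases of Cebpb (20.7% of its exons). It was at means of 7.06 normalized RPKM in wild-type CMPs, 9.16 in GMPs and 51.9 in BMMCs, and at 28.2 in library 3. It thus rose with Cebpb from GMPs to BMMCs. From CMPs to GMPs it changed less than Cebpb, whose wild-type means were 12.9 and 64.0. Spidr overlaps 562 exon bases of Cebpd (15.0%) and was at means of 10.5 in wild-type CMPs, 13.9 in GMPs and 8.16 in BMMCs. Cebpzos overlaps 171 exon bases of Cebpz (3.67%) and ran from 10.4 to 95.4 over the libraries. Gm45091 overlaps 51 exon bases of Cebpa and never passed 6.29. The overlapping genes of Cebpg shared at most 73 exon bases with it, and Cebpe overlapped no annotated gene. Without overlap, A530013C23Rik starts within 10 kb of Cebpb and was at 0.135 normalized RPKM at most, and Ndufaf7 starts within 10 kb of Cebpz and ran from 6.86 to 36.0. The part of reads from these genes in the levels of Cebpb and Cebpd was not tested.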

How the data were processed

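The 26 libraries were placed in 6 groups by the cell type and genotype of their labels. Per the study's methods and the labels, the authors prepared stranded total RNA libraries, sequenced single-end reads, aligned them with GSNAP (HTSeqGenie, GRCm38) and kept reads with 1 alignment that fell in exons. The authors deposited, per library, raw counts of each gene and an RPKM adjusted with a size factor. The annotation used for counting and the strand setting are not given in the sources used here. Of 52636 genes, 52489 were matched to GENCODE M21.

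Counts were normalized with TMM, filtered with filterByExpr and tested by robust quasi-likelihood in edgeR 4.0.16 (R 4.3.3), with p-values adjusted by Benjamini-Hochberg across every gene of the fit and a call at an adjusted p under 0.05. Each comparison used the libraries of its own groups, and the interaction used all GMP and CMP libraries. Standard errors were worked back from the same fits, as the size of the log2 difference over the square root of the F statistic. Confidence intervals at 95% are symmetric t intervals built from these errors. The 6 members, the gene lists and the tests were chosen with earlier results of these data known. The lists share genes, Mmp8 and Ltf being both late granule targets and mature neutrophil markers. Values are given for up to 5 genes of a list with the smallest adjusted p in a comparison and for any at 0 in a group; this covers the target, factor and regulator lists, where none was at 0, and not the marker lists. Also named were the 3 genes most like each member by Pearson's r of log2 CPM (prior count 2, genes at 1 CPM or more in at least 4 libraries), genes that overlap or start within 10 kb of a member, and Prss57. Further genes of the lists, and Fcgr3 and Pf4, were named after their values were seen. Lists are described by counts and medians, without set tests.

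Alternatives were limma voom (limma 3.58.1), DESeq2 1.42.0, RLE size factors, no low-count filter, at least 10 counts in every library, a block for the replicate number, 1 fit of all 26 libraries, an adjusted p under 0.01 with a fold of at least 2, and each library left out. Shares of the family were also computed from CPM per kilobase. In wild-type CMPs this put Cebpb at 12.8% and Cebpg at 12.2%, the reverse of their order in normalized RPKM. Cebpa moved to 51.3% in wild-type CMPs and Cebpz to 3.65% in wild-type GMPs. The tests were tried on simulated counts. Tables used Python 3.11.15 with pandas 2.3.3 and numpy 2.4.6, and figures matplotlib 3.10.9. Reads carried no molecular identifiers used here, so depth covers counting error only.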

Additional observations from a re-analysis of the deposited data

Results flagged for a closer look

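Each member's levels were searched for a library far from the rest of its group, by the gap to its nearest neighbour divided by the range, over 36 sets of libraries. For independent, normally distributed values chance marks about 1 in 20 such sets, and 5 were marked. The 36 sets come from the same 26 libraries and are not independent, so this count is not a test. Cebpb was at 7.25 normalized RPKM in Prss57-/- CMP library 2, against 15.2 to 16.3 in the other 3, the library with the most Pf4. Cebpg was at 12.7 in Prss57-/- BMMC library 3, against 31.8 to 38.5, the library with the lowest macrophage and dendritic cell markers. Cebpz was marked in 3 wild-type groups. It was at 17.9 in CMP library 3, at 11.8 in GMP library 1 and at 19.6 in BMMC library 3, and the last of these was marked because the other 4 libraries lay within 20.9 to 21.4.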

How the results depend on the processing

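The calls of all 6 members between CMPs and GMPs were the same in both genotypes under each alternative run, including each library left out and the study's stricter criteria. In wild-type BMMCs over GMPs, the 5 larger differences kept their call in each alternative, and Cebpz lost it with all 26 libraries in 1 fit and under the stricter criteria. In Prss57-/- BMMCs over GMPs, Cebpa had an adjusted p of 0.0603 with no low-count filter and of 0.0506 and 0.0504 without GMP library 3 and without BMMC library 1, and missed the stricter criteria. Cebpb was called there with DESeq2 (adjusted p = 0.0162), with RLE size factors (0.0463) and with all 26 libraries in 1 fit (0.00879). No member was called between genotypes in any alternative.

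Signs of the uncalled genotype differences turned in places. With limma voom, Cebpz in CMPs was -0.030 and Cebpd in BMMCs -0.015, and with no low-count filter the interaction of Cebpb was 0.0074. With a library left out, differences in GMPs ran from -0.14 to 0.034 for Cebpa, -0.069 to 0.18 for Cebpb, -0.17 to 0.052 for Cebpd and -0.047 to 0.0028 for Cebpg. In CMPs they ran from -0.063 to 0.23 for Cebpa, -0.10 to 0.27 for Cebpb and -0.16 to 0.28 for Cebpz. In BMMCs they ran from -0.24 to 0.25 for Cebpa, -0.27 to 0.19 for Cebpb, -0.024 to 0.32 for Cebpd and -0.16 to 0.20 for Cebpe. Interactions ran from -0.28 to 0.021 for Cebpa, -0.23 to 0.15 for Cebpb and -0.16 to 0.30 for Cebpz. The cause was not tested.

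Labels give the groups shared replicate numbers, but same-numbered libraries did not deviate together in every pair (correlations across genes of -0.33 to 0.16 for the genotypes in GMPs, -0.18 to 0.33 in CMPs and -0.21 to 0.23 in BMMCs, of 0.01 to 0.30 for wild-type GMPs and CMPs and of 0.02 to 0.56 for Prss57-/- GMPs and CMPs). The correlation was over 0.1 in 3 of 4 pairs of the genotypes in CMPs, in 2 of 4 in each of these other progenitor comparisons, and in 1 of 5 in BMMCs. With the replicate block, Cebpz differed by -0.049 between genotypes in CMPs and Cebpd by -0.026 in BMMCs. Cebpa in Prss57-/- BMMCs over GMPs differed by -2.50 at an adjusted p of 0.0528, and no other member's call changed. BMMCs and GMPs came from mice of different sex, so a shared number cannot mean 1 mouse in that comparison. Correlations there were -0.08 to 0.02, over 0.1 in 0 of 4 pairs.

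The number of all genes called between Prss57-/- GMPs and CMPs was 3222, against 5074 with DESeq2 and 6577 with all 26 libraries in 1 fit. With a library left out it ran from 1891 without GMP library 3 to 6924 without CMP library 1, and was 1980, 2072 and 2088 without GMP library 2, GMP library 1 and CMP library 4. Between genotypes it was 2 in GMPs (5 with DESeq2, 1 with the replicate block, with all libraries or without any one of the GMP libraries other than wild-type library 1, 0 with at least 10 counts in every library) and 1 in CMPs (5 with DESeq2, 0 with at least 10 counts). All members passed the filter, so no separate test of filtered members was run. Reads limit Cebpe in BMMCs most, at 26 to 102 per library.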
